A study of Mus musculus with 4 samples.

Results

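Citrate synthase (Cs), mitochondrial isocitrate dehydrogenase (Idh2), the alpha subunit of NAD-dependent isocitrate dehydrogenase (Idh3a), the E1 subunit of oxoglutarate dehydrogenase (Ogdh), the alpha and the GTP-specific beta subunit of succinate-CoA ligase (Suclg1 and Suclg2), fumarate hydratase (Fh1), mitochondrial malate dehydrogenase (Mdh2) and the succinate receptor (Sucnr1) were examined in hepatocytes of mice bred for a liver-specific knockout of Pnpt1. These 9 genes were found on the arrays through the RefSeq accession of their probes, among 16358 named genes. All 9 were among the 11495 named genes with a probe well above background, and all 9 were well above background in both genotypes on 4 of 4 arrays.

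The knockout mice (HepKO) were C57BL/6J with floxed alleles (neo-fl in the breeding scheme) of Pnpt1, the gene for the RNA exonuclease PNPase, and 1 copy of Albumin-Cre, a recombinase driven by a promoter that is active in hepatocytes. Their controls (WT) were C57BL/6J with the same floxed alleles and no Cre, so that Cre and the deletion differ together between the groups. There were 2 mice of each genotype, matched within a pair for sex, age and litter. The pair labelled male was at 12.29 weeks in one label and 12.9 in others, among them the growth protocol. The pair labelled female was at 4.29 weeks. Each pair was hybridised on 2 two-colour arrays with the dyes exchanged, HepKO in Cy5 on the first and in Cy3 on the second. Both arrays of a pair carry the same RNA and count as 1 replicate, so n = 2 pairs throughout. Values are log2 ratios of HepKO over WT, negative where HepKO is lower; means are over the 2 pairs ± the moderated standard error of limma, and a gene is called higher or lower at an adjusted p under 0.05 over all 11495 genes.

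The tricarboxylic acid cycle oxidises acetyl-CoA in the mitochondrial matrix and passes the electrons to the respiratory chain. Citrate synthase opens it, the isocitrate and oxoglutarate dehydrogenases release carbon dioxide, succinate-CoA ligase forms succinate, succinate dehydrogenase makes fumarate from it, and fumarate hydratase and malate dehydrogenase regenerate oxaloacetate. In liver the same reactions feed gluconeogenesis and take up the carbon of amino acids. Succinate that leaves the cell is bound by SUCNR1 (also named GPR91), a G protein-coupled receptor of the plasma membrane; in liver it has been described mainly on hepatic stellate cells.

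Promoter sequence from RefSeq (GRCm38.p6) was matched for 8 of the 9 genes, all but Idh3a, as the 250 bases before the annotated start. It is shown for Sucnr1 and Mdh2, whose ratios lay farthest below and above 0 among the 9 genes. CpG dinucleotides are in capitals, and both sequences run 5′ to 3′ on the plus strand. That of Sucnr1 is chr3:60081619-60081868 and that of Mdh2 is chr5:135778399-135778648.
Sucnr1: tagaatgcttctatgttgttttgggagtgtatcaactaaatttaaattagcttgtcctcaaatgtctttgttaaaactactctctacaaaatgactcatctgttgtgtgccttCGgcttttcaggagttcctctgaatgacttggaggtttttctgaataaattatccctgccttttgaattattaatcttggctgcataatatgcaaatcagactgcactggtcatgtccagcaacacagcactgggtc
Mdh2: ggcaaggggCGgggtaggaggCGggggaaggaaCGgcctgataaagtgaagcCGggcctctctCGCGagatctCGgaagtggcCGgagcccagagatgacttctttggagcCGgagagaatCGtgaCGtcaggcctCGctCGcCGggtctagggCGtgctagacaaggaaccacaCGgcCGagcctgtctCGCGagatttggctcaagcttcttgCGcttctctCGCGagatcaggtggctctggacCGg
The Sucnr1 window holds 1 CpG at 38.0% GC, and the Mdh2 window holds 23 at 63.2% GC. Over 32851 annotated promoters of that length the medians were 6 CpG and 52.4% GC. The other enzymes with a single annotated start ranged from 8 CpG (Suclg2) through 10 (Fh1), 13 (Cs) and 15 (Suclg1) to 17 (Idh2), and the 6 starts of Ogdh held 9 to 35, so that Sucnr1 was the one matched gene under the median of all promoters. Motifs were searched on both strands, and no motif contains another. The cAMP response element TGACGTCA occurs once in the Mdh2 window and once in each of 3 overlapping Ogdh windows, which may hold the same copy, and in 1.55% of all promoters. The GC box GGGCGG was found for Cs, Fh1, Idh2, Mdh2, Suclg2 and some Ogdh starts (32.7% of all promoters), and CCAAT for Cs, Fh1, Idh2, Suclg2 and some Ogdh starts (33.8%). The letters TATAAA (12.4% of all promoters), GTTAAT (an HNF1 half-site, 6.43%), AAGGTCA (an ERR half-site, 4.08%), CCGGAAG (a GABP site, 6.91%) and the NRF1 motif (3.74%) are in none of these windows. The Sucnr1 window held none of the 8 motifs.

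The pair labels went against the sex-chromosome genes. In both genotypes the Y-linked Ddx3y, Eif2s3y and Kdm5d exceeded background on 2 of 2 female-labelled arrays, against 0 of 2 male-labelled ones, and Xist showed the opposite. The names of the labels are kept, and which age and weights go with which pair is therefore uncertain. Each pair also had its own slide, and these effects (slide, age, sex) cannot be told apart here. Of the Pnpt1 probes, A_51_P453343 gave 0.31, 0.058, -0.38 and -0.38 on the 4 arrays and A_52_P229271 gave -0.67, -0.32, -0.50 and -0.60 (mean -0.52 ± 0.13, limma, adjusted p over all probes 0.080). Neither passed the threshold, and no source used here places them relative to the deleted part. Cells were pelleted from collagenase-perfused livers, with no sort for hepatocytes in the protocols, and in such bulk RNA fewer cells of a type and less RNA per cell cannot be told apart. The hepatocyte marker Alb, for albumin, was at -0.12.

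Of the 9 genes, 1 was lower in HepKO, 0 were higher and 8 were not called. Over all 11495 genes 15.7% were called, 3.71% lower and 12% higher. The receptor was the gene called. The 8 enzymes had a median log2 ratio of -0.22, against 0.083 over all genes.

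**Figure D1:**
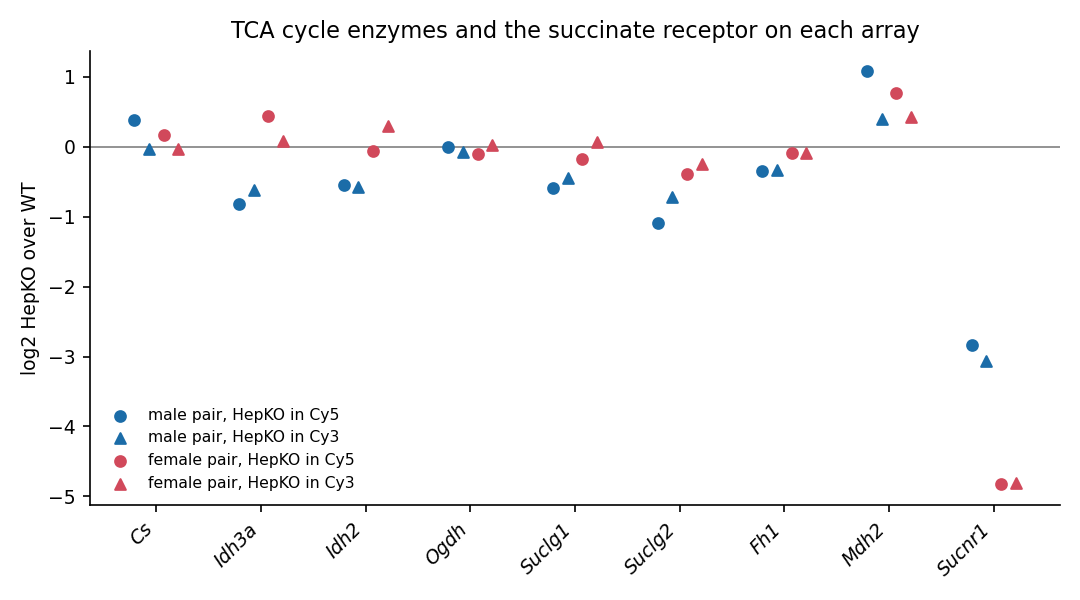
Log2 ratio of HepKO over WT (vertical axis) for each of the 9 genes, 1 point per array; colour gives the pair and shape the dye of the HepKO RNA. Sucnr1 sits between -4.83 and -2.83 on the 4 arrays, and every enzyme lies between -1.09 and 1.07.

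Sucnr1 transcript was 14.7-fold lower in HepKO than in WT. Its single probe, A_52_P614777, read -2.83 and -3.06 on the male pair's arrays and -4.83 and -4.80 on the female pair's. Every array was thus far below 0, and the arrays of a pair lay closer together than the pairs did. The mean was -3.88 ± 0.48 (limma, adjusted p = 0.0210, 95% interval -5.20 to -2.56, lower in 2 of 2 pairs), the 5th lowest of 11495 genes.

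The normalised log2 intensity of Sucnr1 in WT reached 10.51 and 10.71 for the male pair, then 11.75 and 11.77 for the female pair. The HepKO readings were 7.68 and 7.65 (male pair) against 6.92 and 6.96 (female pair). HepKO read below WT on all 4 arrays, as for 25% of all genes, which restates the sign of the ratios. The difference was wider in the female pair, with WT 28.2-fold over HepKO there and 7.70-fold in the male pair. WT read higher and HepKO lower in the female pair. These levels are compared between slides, so how far each side differs between pairs is uncertain. The pair difference in the log2 ratio, female minus male, was -1.87 and was not tested, since each pair is 1 replicate. The mean spot signal before correction was 93.5 to 222 in HepKO, with a local background of 27 to 57, and 1241 to 3289.9 in WT. The HepKO signal was therefore dim but above its background, and the fold depends on how background is removed. With normexp fitted on all spots the mean was -3.26 (limma, adjusted p = 0.0740), and without the filter on dim probes it was -3.88 (adjusted p = 0.0962), so the call was lost in both. In those settings 0 of all genes passed, against 3021 and 4638 at an unadjusted p under 0.05.

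**Figure D2:**
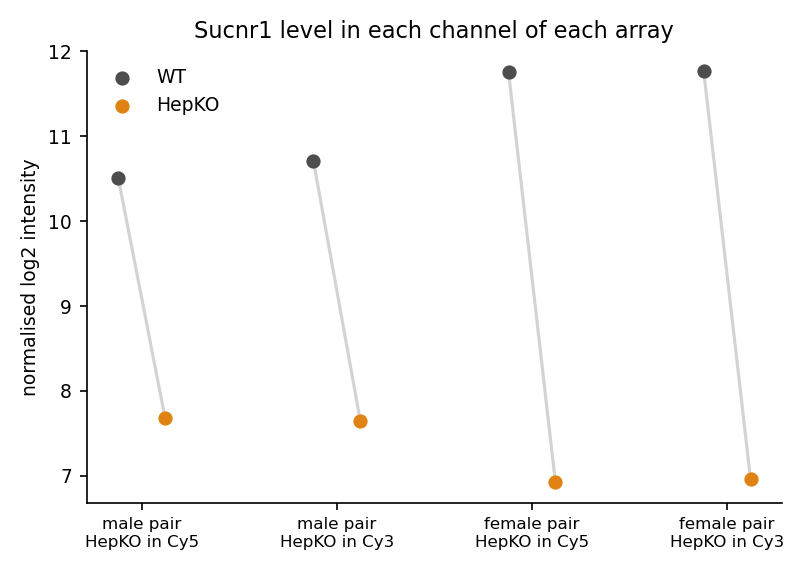
Normalised log2 intensity of the Sucnr1 probe (vertical axis) in the WT and HepKO channel of each of the 4 arrays, with a grey line joining the channels of an array. WT lies between 10.51 and 11.77 and HepKO between 6.92 and 7.68, with the widest gaps in the female pair.

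Marker genes of stellate cells and fibroblasts, among the cells in which the receptor has been described, had a median of 0.76, with 6 of 12 measured markers higher and 0 lower (range -0.0089 to 2.14). Their medians were 0.93 in the male pair and 0.74 in the female pair. Macrophage markers were higher for 9 of 10 measured genes, with a median of 1.71 (range -0.75 to 4.26). Hepatocyte markers had a median of -0.40, with 1 of 9 lower and 0 higher (range -2.38 to 0.24), and their pair medians were -0.63 (male) and -0.046 (female). Endothelial markers (7 of 12 higher, median 1.00) and lymphocyte markers (6 of 10 higher, 0.95) ran the same way as those of macrophages. Neutrophil (2 of 8 higher, 1.04), cholangiocyte (1 of 7 higher, 0.98) and erythroid markers (1 higher and 1 lower of 4, -0.25) were counted likewise. Over all genes 12% were called higher and 3.71% lower. A single call in a list this small cannot be told apart from these shares. With the Feature Extraction log ratio or the authors' value table, 6 neutrophil, 4 cholangiocyte and 4 stellate and fibroblast markers were higher, and without male pair replicate 2 the last number was 2. A strict filter on dim probes kept those well above background in both genotypes on all 4 arrays. There 4 lymphocyte, 4 stellate and fibroblast and 1 neutrophil markers were higher, with 9 macrophage and 7 endothelial ones as before. Markers lost there may have been kept through the genotype where they are higher. The Sucnr1 value is thus opposite in sign to the medians of the stellate and macrophage markers. The part of any of these in the enzyme or receptor values was not tested.

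The genes whose pattern over the 4 arrays lay nearest to that of Sucnr1, by Euclidean distance of the log2 ratios among all measured genes, were Slco1a1 (distance 1.01), Hsd3b5 (1.66), Mup3 (2.16), Sult5a1 (2.47) and Gas1 (2.79). Slco1a1, an organic anion uptake transporter of hepatocytes, read -3.57, -2.91, -4.58 and -4.18, with a mean of -3.81 ± 0.31. Like Sucnr1 it was lower in the female pair. Hsd3b5, a hydroxysteroid dehydrogenase of mouse liver, had a mean of -3.29 ± 0.29 with -2.77 in the male pair and -3.81 in the female pair. Mup3, a major urinary protein with near-identical paralogs that one probe may not separate, was at -4.13 ± 0.14 with the pairs close together (-4.19 and -4.07). The sulfotransferase Sult5a1 (-2.85 ± 0.19) and the growth arrest gene Gas1 (-2.69 ± 0.18) were nearer 0. Being chosen for likeness to a gene called lower, these 5 are given as values only.

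The first enzymes of the cycle lay close to 0. Cs, which condenses acetyl-CoA with oxaloacetate, read 0.38 and -0.029 (male pair), then 0.16 and -0.037 (female pair), with a mean of 0.12 ± 0.14 (limma, adjusted p = 0.586). Its sign followed the dye rather than the pair, and its second probe, A_51_P390260, had the reverse dye pattern (-0.21, 0.43, -0.071 and 0.39) with a mean of 0.14. The 95% interval of Cs ran from -0.28 to 0.51, and its sign turned with median centring (-0.11) and when HepKO-in-Cy3 arrays were used alone (-0.033).

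Idh3a, the catalytic subunit of the NAD-dependent isocitrate dehydrogenase, read -0.82 and -0.61 for the male pair but 0.43 and 0.075 for the female pair. It was the one enzyme with both arrays below 0 in one pair and both above 0 in the other (pair means -0.72 and 0.25). The mean of -0.23 ± 0.28 was within the spread between pairs (limma, adjusted p = 0.583). Idh2, the NADP-dependent enzyme of the matrix, which is encoded by a separate gene, read -0.55 and -0.58 for the male pair, with -0.070 and 0.29 for the female pair. The mean stood at -0.23 ± 0.22 (adjusted p = 0.495), again with the lower values in the male pair.

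Ogdh, which decarboxylates oxoglutarate within a multienzyme complex, had the mean closest to 0 of the 9 genes. Its arrays read -0.0049, -0.080, -0.11 and 0.018, and the mean was -0.045 ± 0.14 (limma, adjusted p = 0.844, 95% interval -0.43 to 0.34). A second probe, A_52_P369310, gave -0.07. The interval leaves room for changes of either sign.

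The subunits of succinate-CoA ligase, which conserves the energy of succinyl-CoA as nucleoside triphosphate, were the enzyme members with the lowest means. Suclg2, the subunit that makes the enzyme form GTP, read -1.09 and -0.72 on the male-labelled arrays, then -0.40 and -0.25 on the female-labelled ones. All 4 arrays were below 0, as were 25% of all genes, and the male pair lay lower. The mean was -0.61 ± 0.20, a 1.53-fold higher level in WT, and did not pass the threshold (limma, adjusted p = 0.115). A second Suclg2 probe, A_51_P478672, read -0.73, -0.77, -0.56 and -0.36 with a mean of -0.60 (adjusted p over all probes 0.0795). Both probes therefore gave nearly the same size. Suclg1, the alpha subunit shared by the GTP and ATP forms, read -0.60, -0.44, -0.18 and 0.062 (mean -0.29 ± 0.18, adjusted p = 0.312). Sucla2, the beta subunit of the ATP form and not among the 9, was at -0.28 ± 0.15 (adjusted p = 0.265).

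Fh1, which hydrates fumarate to malate, read -0.35 and -0.33 on the male-labelled arrays, with -0.089 and -0.093 on the others. The arrays of a pair nearly coincided and all 4 lay below 0, with a mean of -0.22 ± 0.15 (limma, adjusted p = 0.368).

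Mdh2, which closes the cycle by oxidising malate, was the enzyme with values above 0 on all 4 arrays, as had 39.4% of all genes. Its readings were 1.07 and 0.39 for the male pair, against 0.77 and 0.42 for the female pair. The higher reading of each pair came from the array with HepKO in Cy5, while the pair means of 0.73 and 0.60 were close. The mean was 0.67 ± 0.15, a 1.59-fold higher level in HepKO that narrowly missed the threshold (limma, adjusted p = 0.0554, 95% interval 0.27 to 1.06). It passed when only arrays with HepKO in Cy5 were used (0.92, adjusted p = 0.0376) and without female pair replicate 2 (0.75, adjusted p = 0.0408), and in none of the other 12 alternative settings. The mean was 0.24 with median centring (adjusted p = 0.367), 0.41 when only arrays with HepKO in Cy3 were used (0.120) and 0.49 without male pair replicate 1 (0.0975), and it was above 0 in all 14. The single Mdh2 probe was bright, with spot signals before correction of 41389 to 69097 in HepKO and 35688 to 42403 in WT. These ranges pool dyes and pairs, so their overlap does not compare the genotypes. Within a pair and dye, across its arrays, HepKO read above WT. In the male pair it was 45694 against 39766 (Cy5) and 44901 against 42226 (Cy3). In the female pair it was 69097 against 42403 (Cy5) and 41389 against 35688 (Cy3). These signals are not normalised, and the size of the ratio changed with the normalisation. Among all genes 83.6% had a lower ratio, while for Suclg2 8.95% did.

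**Figure D3:**
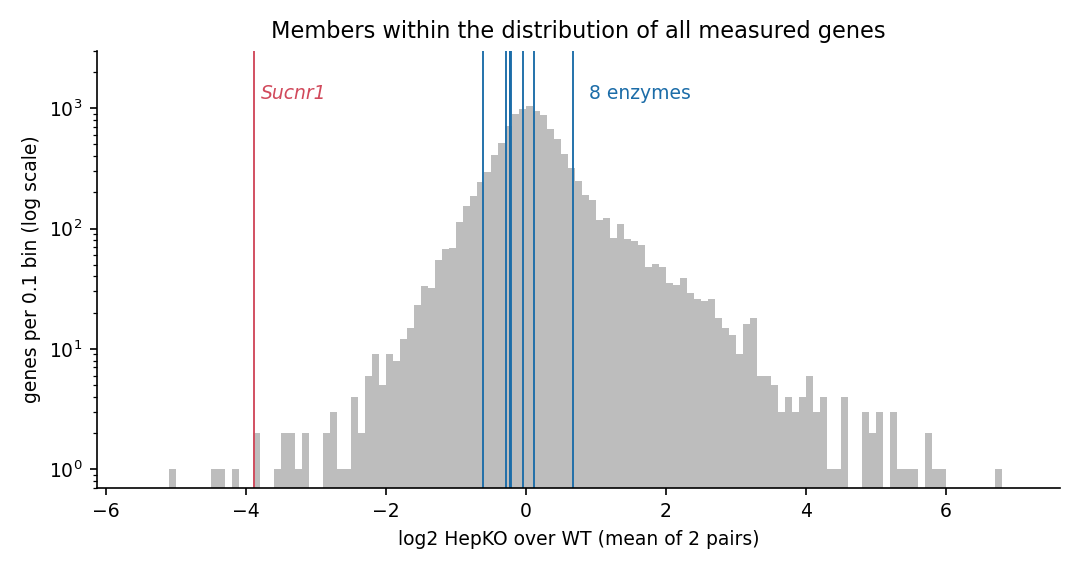
Number of genes per 0.1 bin (vertical axis, log scale) by mean log2 ratio of HepKO over WT (horizontal axis) for 11495 genes, with lines at the 9 genes described. The 8 enzymes lie between -0.61 and 0.67, within the bulk of the distribution, and Sucnr1 lies at -3.88 in its lower tail.

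The median of the 8 enzymes was -0.43 in the male pair and 0.0078 in the female pair, against 0.081 and 0.087 over all genes. In the male pair 6 of 8 had both arrays below 0 (36% of all genes), and in the female pair 2 of 8 did (32.7% of all genes). Suclg2 and Fh1 were the 2 below 0 on all 4 arrays. By array the median of the 8 was -0.45 and -0.39 for the male pair, then -0.079 and 0.040 for the female one, so that dye made less difference than pair. The hepatocyte markers stood lower in the male pair in the same way, and their part in this was not tested. No test was made of the difference between pairs.

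The other 10 subunits of the cycle were all measured and 0 were called (limma). Their median was -0.29, with -0.41 in the male pair and -0.13 in the female pair. Sdha and Sdhb, the catalytic and iron-sulfur subunits of succinate dehydrogenase, which consumes succinate, had the lowest means at -0.57 ± 0.15 (adjusted p = 0.0804) and -0.43 ± 0.17 (adjusted p = 0.147). Over the mean of its kept probes Sdha was lower, at -0.755 (limma, adjusted p = 0.0636). The ratio was lower in the male than in the female pair for 10 of 10 of these subunits and for 5 of the 8 enzyme members, and for 52.3% of all genes. Together the 18 subunits had a median of -0.23 with 0 calls.

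**Figure D4:**
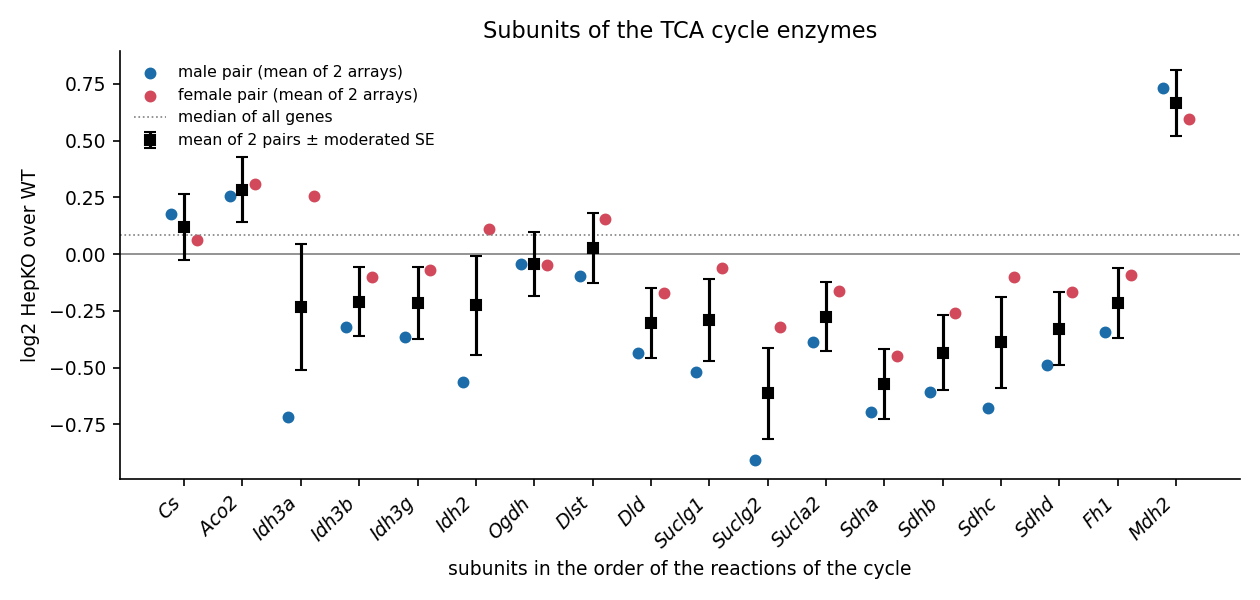
Log2 ratio of HepKO over WT (vertical axis) of 18 subunits in the order of the reactions; squares are means of the 2 pairs with the moderated standard error, and coloured points are the pair values. Suclg2 (-0.61) and Sdha (-0.57) have the lowest means and Mdh2 (0.67) the highest, and the male pair lies below the female pair for 15 of 18.

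Of 15 measured genes that supply or use cycle intermediates, 2 were lower and 0 higher, with a median of -0.63, where 3.71% of all genes were lower. The count of lower genes ran from 0 (among others with median centring and without male pair replicate 2) to 4 (strict filter on dim probes, and without male pair replicate 1), and 2 were higher with median centring, without male pair replicate 1 and with HepKO in Cy3 alone. Among the lower genes was D2hgdh, which returns D-2-hydroxyglutarate to oxoglutarate, the substrate of Ogdh (-0.77 ± 0.14, limma, adjusted p = 0.0424). Its adjusted p was 0.0660 without male pair replicate 2 and 0.0795 without female pair replicate 1, and it passed in 8 of 14 alternative settings.

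Cytosolic counterparts of the enzymes had 0 calls among 6, with a median of -0.37. Idh1, the cytosolic partner of Idh2, was at -1.05 ± 0.23 (limma, adjusted p = 0.0563; it passed in 4 of 14 alternative settings), and the malic enzyme Me1 was at -0.44 ± 0.14 (adjusted p = 0.114). Idh1 thus had a lower mean than either mitochondrial isocitrate dehydrogenase member, but the difference between the genes was not tested. Of 11 measured carriers of intermediates 0 were called, with a median of -0.34. The oxodicarboxylate carrier Slc25a21 was at -0.75 ± 0.29 (adjusted p = 0.149) and Mpc1, a subunit of the mitochondrial pyruvate carrier, was at -0.69 ± 0.14 (adjusted p = 0.0513) and passed in 6 of 14 alternative settings. Assembly and lipoylation factors, some of which attach the lipoyl group that the Ogdh complex needs, had 0 calls among 9 measured genes, with a median of -0.42. Lipt1, a lipoyltransferase, was at -0.64 ± 0.17 (adjusted p = 0.0770) and the desuccinylase Sirt5 at -0.63 ± 0.25 (adjusted p = 0.154).

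Among other receptors for metabolites, of which 6 of 11 were measured, 1 was lower and 0 higher, and the median was 0.44. These counts depended on the processing: with the Feature Extraction log ratio or the authors' value table, 0 were lower and 3 higher. The gene with the widest difference, named after its values were seen, was Hcar2, a receptor for hydroxybutyrate and nicotinic acid, which read 3.72, 3.45, 1.47 and 1.47 (mean 2.53 ± 0.54, limma, adjusted p = 0.0535). The gene called was Gprc5a, an orphan receptor listed here with them, at -1.47 ± 0.30 (limma, adjusted p = 0.0496). It missed the threshold without male pair replicate 2 (0.0725) or female pair replicate 1 (0.0812), and over the mean of its probes it was at -0.63 (adjusted p = 0.112). It passed in 5 of 14 alternative settings. The receptor for oxoglutarate, Oxgr1, gave no measured value here. Of 3 measured genes of the immune use of cycle intermediates, Il1b, an inflammatory cytokine whose induction in macrophages has been tied to succinate, was higher at 1.22 ± 0.20 (adjusted p = 0.0325), and 0 were lower. Its adjusted p was 0.0554 without male pair replicate 2 and 0.0576 without female pair replicate 1, and it passed in 9 of 13 alternative settings. The strict filter on dim probes removed Il1b, so it was not well above background in both genotypes on all 4 arrays. Its call and size may thus rest on a reading near background. It stood beside the higher macrophage markers given above. Of 11 measured regulators of mitochondrial enzyme genes 1 was lower and 0 higher, with a median of -0.020. Tfb2m, a mitochondrial transcription factor, was at -1.02 ± 0.17 (adjusted p = 0.0328), with 0.0508 without male pair replicate 2, and passed in 10 of 14 alternative settings. Over all genes 3.71% were lower and 12% higher. The single call in each of the receptor, immune and regulator lists cannot be told apart from these shares.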

How the data were processed

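Total RNA of hepatocyte preparations from 4 mice was measured on 4 two-colour arrays. Per the file headers, Agilent's Feature Extraction software (version 10.2.1.3) quantified the images; the deposited intensity values used are the mean spot signal and median local background of each channel. The deposited log10 ratios in the same files and in the authors' value table (correlation of 1 or -1 with each other over 43379 spots, column medians of 0) were background-subtracted and dye-normalised by that software, per the file headers, and served as alternatives. No other processing by the authors is given in the sources used here.

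In limma 3.58.1 (R 4.3.3), flagged spots (178 to 260 per array) were left out, background was corrected with normexp (offset 50), and ratios were loess-normalised within arrays with control spots (1639 of 45018) at weight 0. For the channel levels alone, average intensities were then quantile-normalised between arrays (Aquantile). Log2 ratios, all expressed as HepKO over WT, were averaged over the 2 dye orientations. Over the 11495 measured genes, the arrays of a pair correlated at 0.932 (male) and 0.944 (female). No spot was saturated, and 48.2% to 58.6% of probes were well above background. Probes stayed in (22839 of 41174) where some pair had both of its arrays well above background in the channel of one genotype or the other. RefSeq accessions without version named 22951 probes (55.7%) through a GRCm38.p6 table used for names; each gene took the value of its brightest probe kept. The 2 pair values were fitted with an intercept and eBayes (1 residual and 3.12 prior degrees of freedom) with Benjamini-Hochberg adjustment, and the fit was tested on simulated data. The p-values rest on the spread between 2 pairs, and the number of mice limits the precision.

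The members, gene lists, motifs and alternatives were chosen with earlier results of these data known. Named genes were all 9 members, the called genes of each other pathway list (at most 6) or otherwise its 2 largest absolute changes, and the 5 genes nearest to Sucnr1. Lists were described by counts and medians. One gene that the rule names is not reported here.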

Additional observations from a re-analysis of the deposited data

Results flagged for a closer look

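Idh3a moved in opposite directions in the pairs. Both arrays of the male pair were below 0 (pair value -0.72) and both of the female pair above 0 (0.25), a difference of 0.97, female minus male. The brighter Pnpt1 probe did the reverse, with 0.18 in the male pair and -0.38 in the female pair, a difference of -0.57. Neither difference was tested, because each pair is 1 replicate.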

How the results depend on the processing

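Sucnr1 kept its sign in 14 of 14 alternative settings, from -4.71 to -3.26, and passed the threshold in 12. With normexp fitted on all spots it was -3.26 and without the filter on dim probes -3.88, neither past the threshold. In these 2 settings 0 members were lower, and 0 genes were higher and 0 lower over the whole array. The smallest adjusted p was 0.0707 and 0.0689 (limma). Fitting on all spots kept flagged spots in the background fit. The green local background reached 41156.5 on female pair replicate 2, against 35.5 to 39.5 on the other arrays. Its part in the lost calls was not tested. Lower genes numbered 683 when HepKO-in-Cy3 arrays were used alone, and 204 to 572 when 1 array was left out, the lowest without male pair replicate 2. Members higher numbered 1 with HepKO in Cy5 alone and 0 to 1 when 1 array was left out, the 1 being Mdh2. Cs turned sign with median centring (-0.11) and with HepKO-in-Cy3 arrays (-0.033). Median centring moved the median of all genes to 0.18 from 0.083, and that of the enzymes to -0.14; over all settings with a test the enzyme median ran from -0.24 to -0.14. The other 7 enzymes kept their sign in 14 of 14 settings, and of them Mdh2 was called in 2. The cause of these changes was not tested. Each ratio is taken within a matched pair, so the fit is itself paired. Members are limited by 2 pairs and, for 6 of the 9 genes, by a single probe.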
